A study of Mus musculus with 2 samples.

Results

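The genes described here encode the solute carriers of the Slc1, Slc3, Slc6, Slc7, Slc36, Slc38 and Slc43 families, which hold most of the amino acid transporters of the mammalian plasma membrane and lysosome. Members were taken by their symbol alone, as rows of the expression table whose name was one of these family names followed by a number, which gave 59 genes of the 23562 in the table. No expression value entered the choice. RNA sequencing had been run on mouse breast tumour cells of the line AS0574 in 2 forms, each with 1 library. The first, Rnf8-null, had the genotype Rnf8-/-;Trp53Δ/Δ, and the second, Rnf8-complemented, was the same genotype with Rnf8 put back. They are also called null and complemented cells. By their labels both forms thus carried the Trp53 deletion, and Trp53 was still read at 6.15 RPKM in Rnf8-null and 4.69 RPKM in Rnf8-complemented cells. Cells that never lost Rnf8 were not analysed here. Whether the complemented cells were 1 clone, and what drove the added Rnf8, is not given in the sources used here.

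Amino acids cross membranes through carriers that differ in substrate, in the ion that drives them and in whether they exchange one amino acid for another. Exchangers of the Slc7 family reach the cell surface as light chains bound to a heavy chain, CD98hc (Slc3a2) or rBAT (Slc3a1). Other carriers run on sodium (Slc1, Slc6 and Slc38), on protons (Slc36) or on the substrate's own gradient (Slc43 and the cationic carriers of Slc7). Tumour cells commonly take up glutamine, leucine, cystine and arginine in this way, and lysosomal members report amino acid supply to the kinase complex mTORC1. The family names do not map onto amino acids throughout: the Slc6 family also carries serotonin, noradrenaline, dopamine, GABA, taurine, betaine and creatine, and Slc43a3 carries purine bases.

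Levels are given in RPKM, counted reads scaled to gene length and library total, and so can be compared between genes. Counted reads came to 57263401 for the Rnf8-null cells and 48607808 for the Rnf8-complemented cells, in 1 library each. Differences are log2(RPKM + 1), Rnf8-null minus Rnf8-complemented, and the call higher or lower means that this reached 1 or -1, that is 2-fold on that scale, among genes with a mean of at least 1 RPKM over the 2 libraries. Folds of single genes are ratios of RPKM with exact 95% limits from the read counts. These limits cover counting error only, and with 1 library per form differences could not be checked against replicates, and no p-values were computed. Rnf8 itself was read at 10.5 RPKM in Rnf8-null cells and 596 RPKM in Rnf8-complemented cells. In GENCODE vM21 it shares 1542 exon bases with Gm28043, a protein-coding gene on the same strand, so strand would not separate their reads there.

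The libraries also differed in the markers of cell type. The 8 markers of simple epithelium summed to 4631 RPKM in Rnf8-null cells and 0.977 RPKM in Rnf8-complemented cells, and all 8 were called higher. The 3 basal epithelial markers that passed the filter, of 4, were called higher too, with a sum over the 4 of 488 RPKM in null and 0.458 RPKM in complemented cells. The other, Trp63, was below the filter and went the opposite way, with 3 reads in null and 48 reads in complemented cells. Epithelial markers of a breast tumour were thus nearly absent from the Rnf8-complemented cells. Of 9 mesenchymal markers, which summed to 382 RPKM in null and 1574 RPKM in complemented cells, 7 passed the filter and 6 of these were called lower. Vim, not called, held nearly all of the null sum, at 376 RPKM in null and 725 RPKM in complemented cells. Below the filter, Pdgfra had 54 reads in null and 27 reads in complemented cells, and Col1a2 had 24 reads in null and 899 reads in complemented cells. Of 6 markers of dividing cells, 4 were called lower, with sums of 207 RPKM in null and 430 RPKM in complemented cells. Of the 5 leukocyte markers in the table none had more than 3 reads in Rnf8-null cells, and Lyz2 had most in Rnf8-complemented cells with 75. Endothelial markers reached at most 26 reads in null and 50 reads in complemented cells. Of 3 adipocyte markers 2 had 0 reads in Rnf8-null cells and at most 32 reads in Rnf8-complemented cells. Only Fabp4 was abundant in complemented cells, with 6 reads in null and 2878 reads in complemented cells. Epcam, an epithelial surface marker, had 27083 reads in null cells and 1 read in complemented cells, and Col3a1, a fibrillar collagen, had 16 reads in null and 55539 in complemented cells. These values do not show that the libraries hold the same cell population, and with 1 library per form the Rnf8 status and any other difference between the libraries cannot be told apart. What part these differences in cell state or cell type have in the transporter values below was not tested, and in bulk RNA fewer cells of a type and less RNA per cell cannot be told apart.

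Transporter RNA was similar in total and different in make-up. Summed over the 59 genes it came to 313 RPKM in Rnf8-null cells and 311 RPKM in Rnf8-complemented cells, with counting errors of 0.370% in null and 0.384% in complemented cells. The similarity of these totals depends on the scaling, since TMM scaling gave 338 RPKM in null and 288 RPKM in complemented cells and a ratio of 1.17. Of the 59 genes 25 passed the filter, and of these 5 were called higher in Rnf8-null cells, 6 lower and 14 neither. Over all 12609 genes past the filter 14.8% were called higher and 15.9% lower, so the shares among the transporters, 20% and 24%, were not far from those of the whole table. The median difference of the 25 was 0.08, beside -0.17 over all genes. A gene abundant in 1 library only passes the filter through that library, and 7 of the 25 did: 4 stood under 1 RPKM in Rnf8-complemented cells and 3 in Rnf8-null cells. All 7 were among the genes called: Slc43a3, Slc6a19, Slc7a7 and Slc6a14 of the 5 higher, and Slc6a4, Slc7a3 and Slc36a4 of the 6 lower. The other 18 had at least 1 RPKM in both, and of these only Slc43a2 was called higher and Slc3a1, Slc6a8 and Slc7a6 lower. Most of the calls were thus of genes that passed the filter through 1 library only. Exon bases were shared with another gene by 12 of the 59 genes, 7 of them past the filter, and reads there cannot be assigned without strand.

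**Figure D1:**
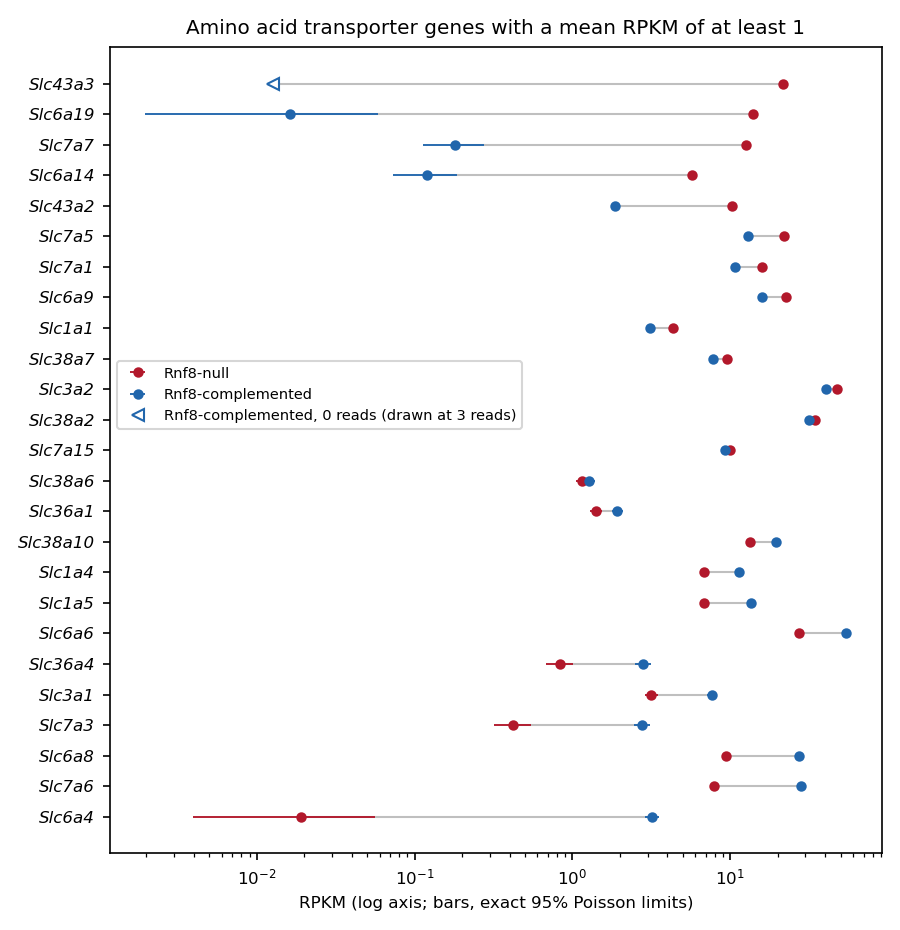
Levels of the 25 transporter genes with a mean of at least 1 RPKM, on a logarithmic axis, in Rnf8-null (red) and Rnf8-complemented (blue) cells; bars are exact 95% Poisson limits and the open triangle marks 0 reads, drawn at the level of 3 reads. The top 4 genes stood at 0.181 RPKM or less in Rnf8-complemented cells, and at the bottom Slc6a4 stood at 0.0191 RPKM in null and 3.20 RPKM in complemented cells.

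**Figure D2:**
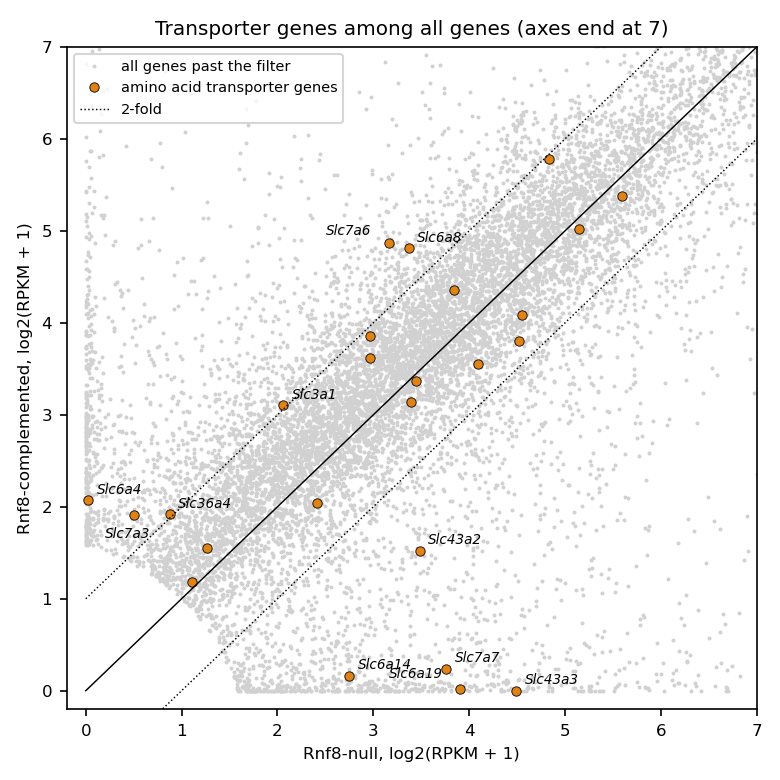
The same 25 genes (orange) among all 12609 genes past the filter (grey), as log2(RPKM + 1) in Rnf8-null (horizontal) and Rnf8-complemented (vertical) cells, with dotted lines at 2-fold and axes ended at 7. Transporters called higher (5) or lower (6) in Rnf8-null cells are named, and the other 14 lie between the dotted lines.

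The 5 members called higher came from 3 of the groups, with 2 in Slc43, 2 among the Slc6 amino acid carriers and 1 among the light chains. Slc43a3, the purine base carrier, lies on chromosome 2 from 84936579 to 84958509 of GRCm38. It had 5999 reads in Rnf8-null cells (21.5 RPKM, 20.9 to 22.0) and 0 in Rnf8-complemented cells. Set against a floor of 3 reads in Rnf8-complemented cells it was at least 1697-fold higher. Its family member Slc43a2, which encodes LAT4, a facilitative carrier of large neutral amino acids such as leucine and phenylalanine, stood at 10.2 RPKM in Rnf8-null cells and 1.87 RPKM in Rnf8-complemented cells, 5.44-fold higher (5.08 to 5.83). It shares 922 exon bases with the antisense gene Gm45606. Slc43a1, encoding the related LAT3, had 4 reads in each library. The Slc43 family thus made up 10.1% of the transporter RNA in Rnf8-null cells and 0.607% in Rnf8-complemented cells.

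The Slc6 family supplied the apical neutral carriers of absorptive epithelia. Slc6a19, which encodes B0AT1, the sodium-driven neutral amino acid carrier of the kidney tubule and small intestine, lies on chromosome 13 from 73679745 to 73704865. It had 2036 reads in Rnf8-null cells (14.0 RPKM, 13.4 to 14.6) and 2 reads in Rnf8-complemented cells, 864-fold higher with limits of 239 and 7140. Slc6a14 on chromosome X encodes ATB0,+, which takes up neutral and cationic amino acids on sodium and chloride. It had 1124 reads (5.72 RPKM, 5.39 to 6.06) in Rnf8-null cells and 20 reads (0.120 RPKM, 0.0732 to 0.185) in Rnf8-complemented cells, 47.7-fold higher (30.7 to 78.4). Slc6a18, a kidney relative of Slc6a19 next to it on chromosome 13, had 10 reads in null and 0 reads in complemented cells.

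The fifth, Slc7a7, encodes y+LAT1, the light chain that releases cationic amino acids at the basal side of kidney and gut epithelium in exchange for neutral amino acids and sodium. It lies on chromosome 14 from 54369442 to 54417780. It stood at 12.6 RPKM in Rnf8-null cells (1801 reads) and 0.181 RPKM in Rnf8-complemented cells (0.113 to 0.273, 22 reads), 69.5-fold higher (45.8 to 111). Its exons share 232 bases with those of Oxa1l on the opposite strand, and whether counting used strand is not given in the sources used here. Oxa1l had 2856 reads in Rnf8-null and 1884 in Rnf8-complemented cells, in which Slc7a7 had 22. Slc6a14, Slc6a19 and Slc7a7 together summed to 32.2 RPKM in Rnf8-null cells and 0.317 RPKM in Rnf8-complemented cells. These genes were put together after each had been called higher, so the sum restates those calls. Among other kidney or gut members Slc3a1 was called lower. Slc6a18 and Slc7a9 were below the filter, and their reads, at most 10 in either library, were too few to show whether they shared the pattern.

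The promoters of the members called higher are shown so that the sequence upstream of these genes can be read beside their levels, and that of Slc7a11, the cystine carrier, because it is a textbook target of Atf4, the transcription factor of the amino acid response. Each is the 250 bases before the outermost annotated start in RefSeq (GRCm38.p6), read along the gene's strand. The windows are chr13:73692637-73692886 for Slc6a19 (minus strand), chr14:54417945-54418194 for Slc7a7 (minus strand), chrX:21714650-21714899 for Slc6a14 (plus strand), chr11:75531444-75531693 for Slc43a2 (plus strand) and chr3:50443614-50443863 for Slc7a11 (minus strand). The Slc6a19 window lies inside the longer gene span of GENCODE given above, and Slc43a3 has no entry. For Slc7a7 the RefSeq start used lies outside the GENCODE span given above. Capitals mark matches, on either strand, to TGATGNAA, a core of the amino acid response element bound by Atf4 and its partners.
Slc6a19: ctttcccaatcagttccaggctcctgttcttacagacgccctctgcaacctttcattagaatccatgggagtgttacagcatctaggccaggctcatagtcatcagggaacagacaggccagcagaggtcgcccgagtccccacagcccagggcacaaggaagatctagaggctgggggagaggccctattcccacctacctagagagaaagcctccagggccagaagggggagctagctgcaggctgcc
Slc7a7: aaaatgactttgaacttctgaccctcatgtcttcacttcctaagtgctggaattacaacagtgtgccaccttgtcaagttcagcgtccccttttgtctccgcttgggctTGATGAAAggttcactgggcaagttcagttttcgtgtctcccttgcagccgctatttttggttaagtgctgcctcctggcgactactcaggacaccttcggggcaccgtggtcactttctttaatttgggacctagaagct
Slc6a14: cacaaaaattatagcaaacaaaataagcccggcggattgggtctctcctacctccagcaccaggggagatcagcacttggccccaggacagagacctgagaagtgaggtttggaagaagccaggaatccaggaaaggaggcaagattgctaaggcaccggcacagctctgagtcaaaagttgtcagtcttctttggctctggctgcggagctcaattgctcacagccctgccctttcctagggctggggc
Slc43a2: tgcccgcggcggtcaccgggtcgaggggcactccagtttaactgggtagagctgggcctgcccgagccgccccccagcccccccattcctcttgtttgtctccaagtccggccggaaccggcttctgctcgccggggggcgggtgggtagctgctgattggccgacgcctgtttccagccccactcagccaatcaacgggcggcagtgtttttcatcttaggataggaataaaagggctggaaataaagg
Slc7a11: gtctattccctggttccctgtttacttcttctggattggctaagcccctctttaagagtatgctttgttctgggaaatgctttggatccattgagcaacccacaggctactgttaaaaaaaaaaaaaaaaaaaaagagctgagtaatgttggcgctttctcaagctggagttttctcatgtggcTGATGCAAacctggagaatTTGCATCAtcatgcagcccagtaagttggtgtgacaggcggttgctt

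Slc7a11 had 2 matches, one on each strand, with their leftmost bases 66 and 47 bases before the start. Slc7a7 had 1 match, 141 bases before the start. Another of its annotated starts had 1 as well, and the rest of its annotated starts had none. The windows of Slc6a19, Slc6a14 and Slc43a2 had none. Of the 59 genes 41 were in the RefSeq table of starts, with 62 windows, and 3 of these windows (4.84%), belonging to 2 genes, held the motif, beside 1134 of 32851 windows of all genes (3.45%). A match is a description of these letters and not a site shown to be bound. Slc7a11 was read at 0.561 RPKM in Rnf8-null cells (0.505 to 0.622) and 1.13 RPKM in Rnf8-complemented cells (1.04 to 1.22), 2.02-fold lower (1.77 to 2.30). It was below the filter and not called, with a difference of -0.45 on the log2(RPKM + 1) scale. Whether Atf4 acted on any of these genes was not tested.

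Among the other light chains, Slc7a6 went opposite to Slc7a7. Slc7a6 encodes y+LAT2, an exchanger of cationic for neutral amino acids found in many tissues, and lies on chromosome 8 from 106168857 to 106198706. It stood at 7.93 RPKM in Rnf8-null cells (7.66 to 8.21, 3291 reads) and 28.2 RPKM in Rnf8-complemented cells (27.6 to 28.7, 9926 reads), 3.55-fold lower (3.42 to 3.70). Added up, the pair came to 20.5 RPKM in Rnf8-null cells and 28.4 RPKM in Rnf8-complemented cells, so that Slc7a7 had most of the pair's RNA in the first and Slc7a6 nearly all of it in the second. Slc7a5, which encodes LAT1, the leucine and glutamine exchanger much studied in tumours, was at 21.9 RPKM in Rnf8-null cells and 13.0 RPKM in Rnf8-complemented cells, a ratio of 1.69 (1.61 to 1.78) and within 2-fold. Slc7a15, another light chain of the family, stood at 9.90 RPKM in null and 9.29 RPKM in complemented cells, within counting error (limits of the ratio 0.992 to 1.15). Slc7a8, encoding LAT2, had 8 reads in null and 9 reads in complemented cells, and the light chains Slc7a9, Slc7a10, Slc7a12 and Slc7a13 had at most 2 reads in either library. The 10 light chains summed to 52.9 RPKM in Rnf8-null cells and 51.8 RPKM in Rnf8-complemented cells.

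Their heavy chain differed little. Slc3a2, on chromosome 19 from 8706882 to 8723369, was the most abundant member in Rnf8-null cells at 47.4 RPKM (46.4 to 48.4) and stood at 40.6 RPKM (39.6 to 41.6) in Rnf8-complemented cells, a ratio of 1.17 (1.13 to 1.21). Among genes past the filter these levels lay at the 86.0th percentile in null and the 83.3rd in complemented cells. Slc3a1, the heavy chain of the cystine carrier of kidney, was called lower, at 3.17 RPKM in null and 7.62 RPKM in complemented cells (2.41-fold lower, 2.14 to 2.71). Its exons share 601 bases with Prepl on the opposite strand, which stood at 2.91 RPKM in null and 6.77 RPKM in complemented cells, 2.33-fold lower (2.16 to 2.51), so without strand the reads of the 2 genes cannot be told apart at the shared bases. Its partner Slc7a9 had 1 read in null and 0 in complemented cells. With TMM scaling the difference of Slc3a1 was -0.86, short of the 2-fold call.

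The sodium-driven carriers of taurine, creatine and serotonin were among the members with less RNA in Rnf8-null cells. Slc6a8, the creatine carrier, on chromosome X from 73673150 to 73682502, stood at 9.36 RPKM in Rnf8-null cells (9.03 to 9.70, 3019 reads) and 27.1 RPKM in Rnf8-complemented cells (26.5 to 27.7, 7427 reads), 2.90-fold lower (2.78 to 3.02). Slc6a6, the taurine carrier, was the most abundant member in Rnf8-complemented cells at 54.1 RPKM, with 27.5 RPKM in Rnf8-null cells, 1.97-fold less in Rnf8-null cells (1.92 to 2.02), and its difference of -0.95 fell just short of the call. It shares 117 exon bases with Gm44981 on the opposite strand. Slc6a4, the serotonin carrier of neurons and platelets, had 3 reads in Rnf8-null cells and 427 in Rnf8-complemented cells (0.0191 RPKM in null and 3.20 RPKM in complemented cells), 168-fold lower with limits of 57.0 and 816. Its difference of -2.04 became -0.71 with a pseudocount of 5 RPKM, short of the call. The carriers of GABA, taurine, creatine and betaine made up 11.8% of the transporter RNA in Rnf8-null cells and 26.1% in Rnf8-complemented cells, nearly all of it Slc6a6 and Slc6a8. Slc6a11, Slc6a12 and Slc6a13, which carry GABA or betaine, had at most 10 reads in Rnf8-null and 18 in Rnf8-complemented cells. The noradrenaline carrier gene Slc6a2 had 22 reads in null and 76 reads in complemented cells and the dopamine carrier gene Slc6a3 had 0 reads in null and 3 reads in complemented cells.

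**Figure D3:**
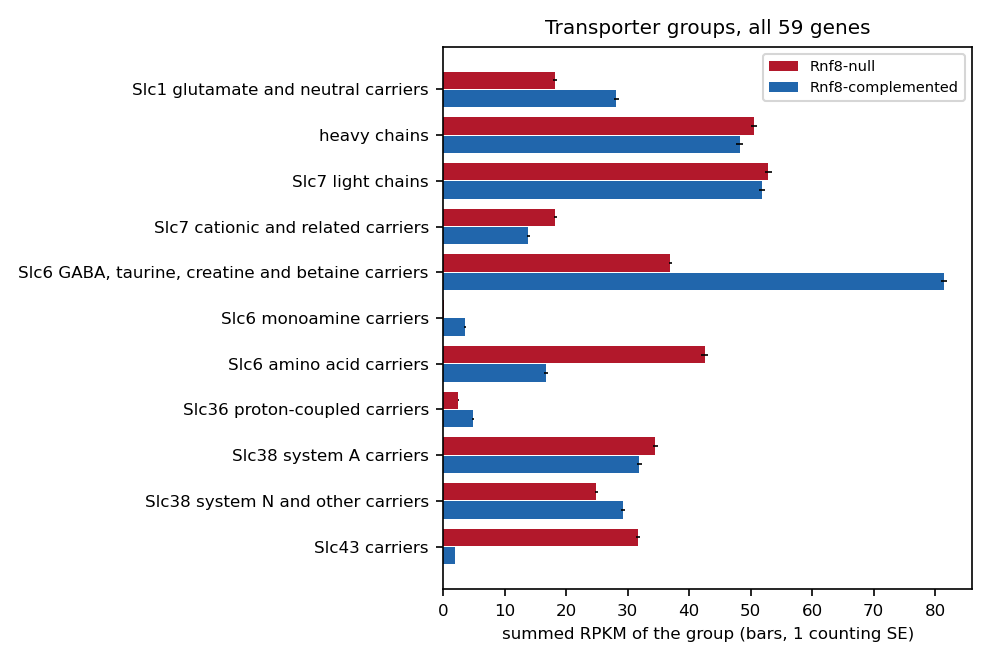
Summed RPKM of the 11 transporter groups over all 59 genes in Rnf8-null (red, upper bar) and Rnf8-complemented (blue, lower bar) cells; error bars are 1 counting standard error. The Slc43 group summed to 31.7 RPKM in null and 1.89 RPKM in complemented cells, the Slc6 amino acid group to 42.5 RPKM in null and 16.8 RPKM in complemented cells, and the GABA, taurine, creatine and betaine group to 37.0 RPKM in null and 81.4 RPKM in complemented cells.

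Carriers of arginine and lysine also split. Slc7a1 encodes CAT1, the main cationic carrier of most cells, and stood at 16.0 RPKM in Rnf8-null cells and 10.8 RPKM in Rnf8-complemented cells, a ratio of 1.48 (1.43 to 1.55) and within 2-fold. Slc7a3, encoding CAT3, a cationic carrier mainly of brain, was called lower at 0.420 RPKM (0.318 to 0.544, 57 reads) in Rnf8-null cells and 2.77 RPKM (2.47 to 3.09, 319 reads) in Rnf8-complemented cells, 6.59-fold lower (4.96 to 8.90). With a pseudocount of 5 RPKM its difference was -0.52, short of the call. Slc7a2, encoding CAT2, had 12 reads in null and 88 reads in complemented cells, below the filter, 8.64-fold lower (4.71 to 17.4). It shares 635 exon bases with Gm26584 on the opposite strand. Both lower genes stood under Slc7a1 in either library, so the group as a whole summed to 18.2 RPKM in Rnf8-null and 13.8 RPKM in Rnf8-complemented cells. The orphan member Slc7a4 had 352 reads in null and 0 reads in complemented cells, at least 99.6-fold higher against the floor of 3 reads, but it shares 554 exon bases with P2rx6, which had 131 reads in null and 10 reads in complemented cells. Its mean of 0.873 RPKM kept it below the filter. Slc7a14, a lysosomal relative, had 4 reads in null and 3 reads in complemented cells.

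The Slc1 and Slc38 carriers that passed the filter, among them those of glutamine and small neutral amino acids, were all within 2-fold. Slc38a2 encodes SNAT2, a sodium-driven carrier whose gene is known to respond to amino acid shortage, and stood at 34.5 RPKM in Rnf8-null cells and 31.4 RPKM in Rnf8-complemented cells (ratio 1.10, 1.06 to 1.13). Its relatives in this transport system, Slc38a1 and Slc38a4, were below the filter and had no read in Rnf8-null cells. In the Rnf8-complemented cells Slc38a1 had 235 reads (0.330 RPKM, at least 92.3-fold lower in Rnf8-null cells) and Slc38a4 28 reads (0.135 RPKM, at least 11.0-fold lower), so Slc38a2 carried nearly all the RNA of this system in both. The exchangers Slc1a5 (ASCT2, a main glutamine carrier of tumour cells) and Slc1a4 (ASCT1, for alanine, serine and cysteine) both had less RNA in Rnf8-null cells, at 6.81 RPKM in null and 13.5 RPKM in complemented cells for Slc1a5 (1.98-fold, 1.83 to 2.14) and 6.81 RPKM in null and 11.3 RPKM in complemented cells for Slc1a4 (1.66-fold, 1.56 to 1.78). Neither reached the call, with differences of -0.89 and -0.66. Slc1a1, a glutamate carrier, was read at 4.32 RPKM in null and 3.10 RPKM in complemented cells (ratio 1.39, 1.28 to 1.51). Slc1a1 shares 2631 exon bases with 4430402I18Rik, which had 179 reads in null and 175 reads in complemented cells. Of the glial and neuronal glutamate carriers, Slc1a2 had 137 reads in null and 0 reads in complemented cells, Slc1a7 had 5 reads in null and 45 reads in complemented cells, and Slc1a3 and Slc1a6 at most 2 in either library. Slc1a2 shares 189 exon bases with the antisense gene Gm13872.

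Slc6a9, the glycine carrier GlyT1, was read at 22.5 RPKM in Rnf8-null cells and 16.0 RPKM in Rnf8-complemented cells (ratio 1.40, 1.34 to 1.48). It shares 1555 exon bases with 3 genes on the opposite strand, of which Ccdc24 had 402 reads in null and 236 reads in complemented cells and B4galt2 had 36 reads in null and 148 reads in complemented cells. The brain proline carrier gene Slc6a7 had 58 reads in null and 103 reads in complemented cells.

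The lysosomal and proton-driven members ranged widely in level. Slc36a1, encoding the lysosomal carrier PAT1, was at 1.41 RPKM in Rnf8-null cells and 1.93 RPKM in Rnf8-complemented cells. Slc36a4, encoding PAT4, was called lower at 0.834 RPKM (100 reads) in null and 2.79 RPKM (284 reads) in complemented cells, 3.35-fold lower (2.65 to 4.25), with a difference of -1.05 that became -0.91 with TMM scaling. Slc38a9, the lysosomal arginine sensor of mTORC1, was below the filter at 0.726 RPKM in null and 0.558 RPKM in complemented cells, and shares 182 exon bases with the antisense gene Gm47827. Slc38a7, which exports glutamine from lysosomes, stood at 9.52 RPKM in null and 7.79 RPKM in complemented cells (ratio 1.22, 1.14 to 1.31). Slc38a10, which shares 367 exon bases with Gm11769, was read at 13.4 RPKM in null and 19.6 RPKM in complemented cells and Slc38a6 at 1.15 RPKM in null and 1.27 RPKM in complemented cells, the second within counting error. Slc36a2 had 34 reads in null and 5 reads in complemented cells, Slc36a3 had 2 reads in null and 1 read in complemented cells, Slc38a3 had 17 reads in null and 4 reads in complemented cells, and Slc38a8 and Slc38a11 had at most 4 in either library.

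**Figure D4:**
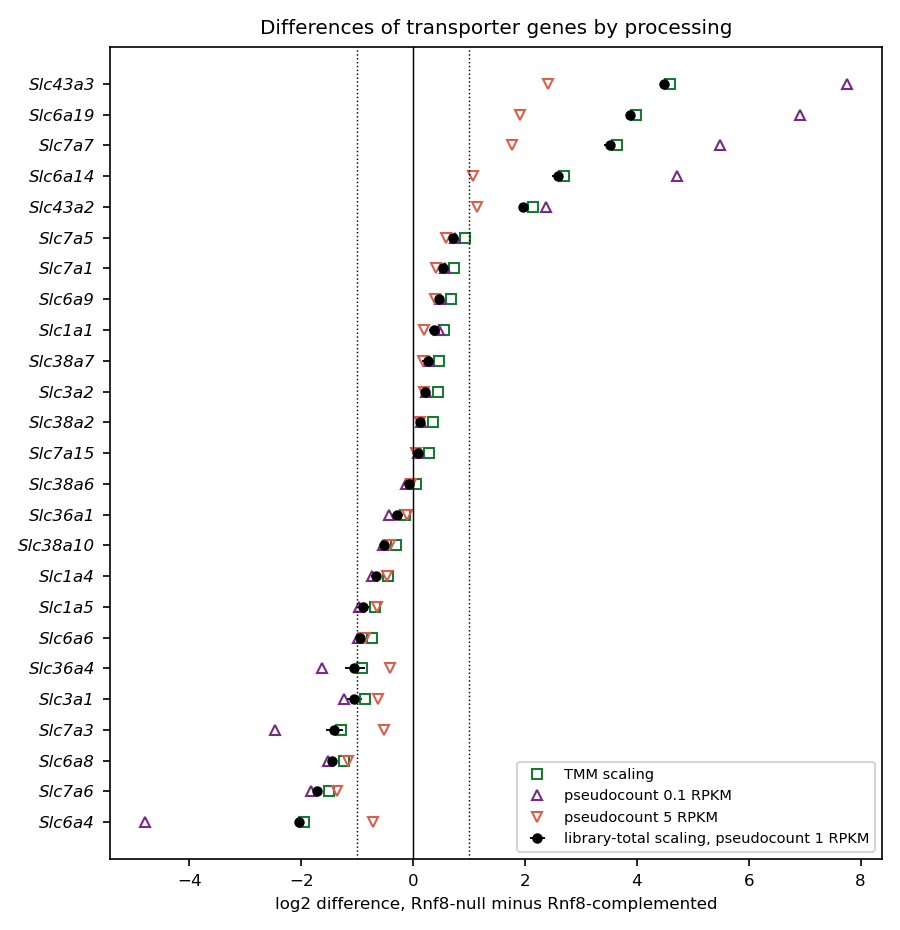
Log2 difference, Rnf8-null minus Rnf8-complemented, of the 25 genes past the filter; black points carry exact 95% counting limits, open symbols show TMM scaling and a pseudocount of 0.1 RPKM or of 5 RPKM, each used for both libraries, and dotted lines mark 2-fold. The 5 genes called higher stay right of the line at 1 under each setting drawn. The black points of Slc36a4 and Slc3a1 lie near the line at -1. With a pseudocount of 5 RPKM Slc36a4, Slc3a1, Slc6a4 and Slc7a3 fall short of that line.

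The order at the call's edge was as follows. On the lower side Slc3a1 and Slc36a4, both at -1.05, lay just inside, and Slc6a6 at -0.95 and Slc1a5 at -0.89 just outside. On the higher side there was a gap between Slc43a2 at 1.96 and Slc7a5 at 0.71. Of the 34 members below the filter 6 had no read in either library, and 28, these included, had fewer than 100 reads in each. The 6 with 100 reads or more in a library were Slc1a2, Slc6a7, Slc7a4, Slc7a11, Slc38a1 and Slc38a9.

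Genes that act with these carriers were read from 4 lists. Among 21 amino acid carriers of mitochondria, vesicles and other families, 13 passed the filter, 3 were called higher and 2 lower, with a median of 0.13. The mitochondrial aspartate and glutamate exchangers went opposite ways: Slc25a12 stood at 5.55 RPKM in null and 23.7 RPKM in complemented cells (4.28-fold lower, 3.97 to 4.60) and Slc25a13 at 11.7 RPKM in null and 4.21 RPKM in complemented cells (2.78-fold higher, 2.55 to 3.04). Slc25a15, the ornithine carrier, stood at 3.70 RPKM in null and 9.55 RPKM in complemented cells and was called lower. Sfxn3, a sideroflexin, stood at 50.2 RPKM in null and 22.0 RPKM in complemented cells and was called higher.

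Of 44 enzymes of amino acid metabolism 35 passed the filter, 4 were called higher and 5 lower (median 0.07). Arg2, the mitochondrial arginase, stood at 25.2 RPKM in Rnf8-null cells and 1.18 RPKM in Rnf8-complemented cells, 21.4-fold higher (17.1 to 27.0). Nos2, which makes nitric oxide from arginine, stood at 6.38 RPKM in null and 165 RPKM in complemented cells, 25.8-fold lower (24.5 to 27.2). Gatm, which joins arginine and glycine in the first step of creatine synthesis, had 2 reads in null and 1546 reads in complemented cells, 911-fold lower with limits of 252 and 7526. Bcat1, which transaminates leucine, isoleucine and valine in the cytosol, had 0 reads in null and 1570 reads in complemented cells, at least 617-fold lower against the floor of 3 reads.

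The mTORC1 amino acid sensing list was mostly within 2-fold, with 35 of 36 genes past the filter, 1 called higher, 4 lower and a median of -0.37. Gatsl3, known as the arginine sensor Castor1, stood at 11.4 RPKM in null and 1.06 RPKM in complemented cells, 10.7-fold higher (8.55 to 13.7). Sesn1, of the sestrin family that senses leucine, stood at 2.60 RPKM in null and 10.4 RPKM in complemented cells (3.99-fold lower, 3.60 to 4.41). Rragd, a Rag GTPase, had 2 reads in null and 674 reads in complemented cells, 397-fold lower with limits of 109 and 3285, and Lamtor3, of the Ragulator complex that anchors it, was at 22.9 RPKM in null and 54.1 RPKM in complemented cells.

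Of 20 genes of the Gcn2 and Atf4 response to amino acid shortage 19 passed the filter, 5 were called higher and 2 lower, with a median of 0.29. Trib3 stood at 42.1 RPKM in null and 3.75 RPKM in complemented cells (11.2-fold higher, 10.1 to 12.5), Nupr1 at 384 RPKM in null and 46.6 RPKM in complemented cells (8.23-fold, 7.79 to 8.70) and Atf3 at 15.2 RPKM in null and 2.47 RPKM in complemented cells (6.14-fold), while Stc2 stood at 1.98 RPKM in null and 16.9 RPKM in complemented cells (8.56-fold lower, 7.67 to 9.57). Phgdh, called lower, is in both this list and that of the enzymes. Against the shares of all genes called, 14.8% and 15.9%, the counts of these 4 lists are descriptions and were not tested.

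**Figure D5:**
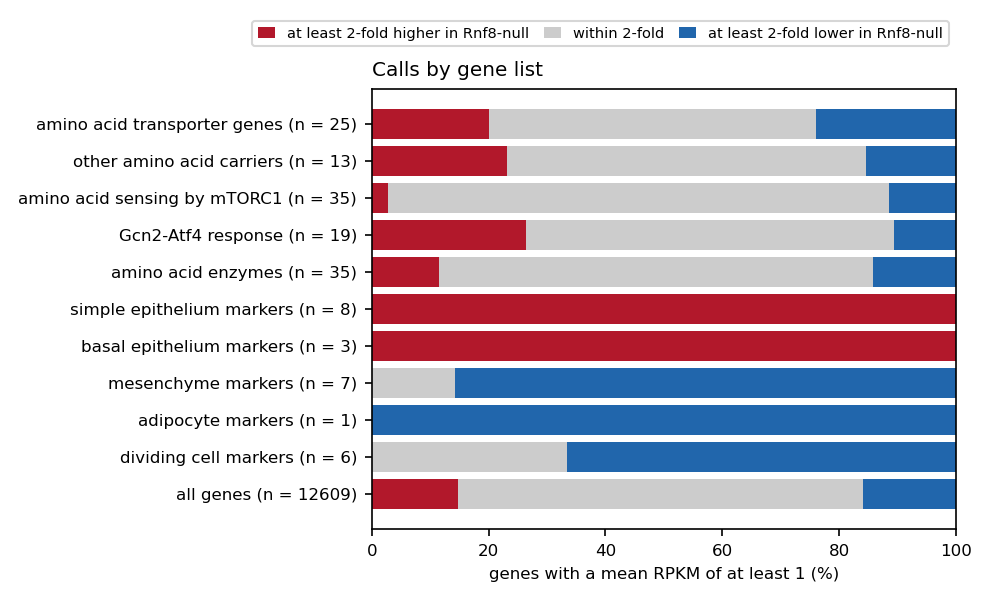
Share of the genes past the filter that were at least 2-fold higher (red), within 2-fold (grey) or at least 2-fold lower (blue) in Rnf8-null cells, for the transporter genes, the lists of related genes, the marker lists and all genes, with the number of genes beside each name. The transporters, at 20% and 24%, lie near all genes at 14.8% and 15.9%, and the 8 simple epithelium markers were all higher.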

How the data were processed

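Per the file headers the authors deposited gene-level counts of reads, not normalized, and RPKM values for the same genes and libraries. Each deposited RPKM equalled its count scaled by the column total and 1 gene length, whole to within 1.35e-08 bases. Per the submitters' processing notes the tools included DESeq2, bedtools, SAMtools 0.1.18 and STAR 2.4.0f1, in no stated role, and the build was mm10 (GRCm38). Which counter and annotation were used, and whether strand was, is not given in the sources used here. Scaling to the library total passes a shift in a few abundant genes on to all others.

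Columns were matched to samples by title, and the table held 0 columns of other samples. Log2(RPKM + 1) differences were computed per gene, with a filter of a mean RPKM of at least 1. Poisson and conditional binomial (Clopper-Pearson) limits used Python 3.11.15 and scipy 1.17.1, and PCR copies among the reads mean that they are not all independent molecules. With 1 library per form no test was possible. The interval and call steps were run on simulated Poisson counts of genes with a mean of at least 5 RPKM. This run does not cover genes between the filter and that level, or variation between replicates. Alternatives were pseudocounts of 0.1 and 5 RPKM, TMM (edgeR 4.0.16) and median-of-ratios (DESeq2 1.42.0) scaling, and other filters. Leaving out members that share exon bases was chosen after seeing the data. Positions and exon overlaps come from GENCODE vM21 on GRCm38, which held all 59 symbols.

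Every member may be named, but 1 result is not reported here. Of each related list up to 4 genes past the filter with the largest absolute difference are named. Lyz2, Epcam, Phgdh, Trp63, Vim, Pdgfra and Col1a2 were named after their values were seen. The members and lists were chosen with earlier results of these data known. The printed promoters and the pairs and other sets of genes added up were chosen after their values were seen.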

Additional observations from a re-analysis of the deposited data

How the results depend on the processing

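The 5 members called higher kept that call under both other scalings and both other pseudocounts. The count was 6 without a filter, 4 with a mean RPKM of at least 5, and 3 without the members that share exon bases with another gene, an alternative chosen after seeing the data, because Slc7a7 and Slc43a2 then left the list. The 6 called lower were 2 with a pseudocount of 5 RPKM, where Slc3a1, Slc36a4, Slc6a4 and Slc7a3 fell short, and 3 with the filter at 5 RPKM, where fewer genes were tested. They were 4 with TMM or median-of-ratios scaling, which left out Slc3a1 and Slc36a4, 6 with a pseudocount of 0.1 RPKM or no filter, and 5 without shared exon bases. The median difference of the members was 0.29 with TMM and 0.30 with median-of-ratios scaling, which moved the median of all genes by 0.20 and 0.21. Relative to the median of all genes it was 0.26 with the library total and with either scaling. Slc38a6 alone among the 25 changed sign, with either scaling. With 5 higher and 6 lower by library totals, either scaling gave 5 and 4. Genes under about 100 reads have wide limits. No paired analysis was possible because each form had 1 library.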
